A study of Mus musculus with 6 samples.

Results

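The Hox cluster genes were followed through H3K4me3 peak lists of mouse striatal progenitor cells. They were the protein-coding genes of the GENCODE vM21 annotation whose symbol is Hoxa, Hoxb, Hoxc or Hoxd and a number, 39 of 21911 protein-coding genes. Membership followed the symbol and no measured value, but earlier results of these data were known when the set was chosen. Hoxa had 11 genes on chromosome 6, Hoxb 10 on chromosome 11, Hoxc 9 on chromosome 15 and Hoxd 9 on chromosome 2. Here a marked gene is one with a peak no more than 1 kb from an annotated transcript start. Its percentile ranks the score of the strongest such peak among all peaks in that list.

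The cells were STHdh lines, conditionally immortalised progenitors from mouse striatum of the strain C57BL/6, and each genotype was represented by a single purchased line. H3K4me3 ChIP-Seq gave 6 peak lists, 1 per condition. Q7SST was the wild type line STHdhQ7 (STHdh7 in its sample label) and Q111SST was STHdhQ111, a line homozygous for the mutant Huntingtin knock-in, and both had received the DMSO vehicle. The remaining 4 lists came from STHdhQ111 cells given 10 uM cyproheptadine, loxapine, DKI (diacylglycerol kinase inhibitor II) or meclizine. All cells, controls included, had been kept for 24 h in serum-free medium. Every comparison below is between single lists without a replicate check, so differences are described and none was tested. Genotype and line cannot be told apart, since Q7SST and Q111SST were different lines. The lists held 30758 (DKI) to 45564 (loxapine) peaks and covered 1.08% to 1.65% of the genome. Read depth is unknown. Among 19 forebrain and striatal progenitor markers, 17 were marked in Q7SST, 12 in Q111SST and 11 to 13 in the compound lists, with Lhx2, a transcription factor of the developing cortex, marked in all 6 and Isl1 in none. Of 11 mesenchymal or fibroblast markers, 9 or 10 were marked in each list. Over all protein-coding genes, 58.6% were marked in Q7SST, 57.1% in Q111SST and 54.1% to 57.3% in the compound lists.

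Hox genes encode homeodomain transcription factors that set position along the head to tail axis. They lie in clusters, and their order along the chromosome matches the order of their domains of expression, with low paralogue numbers acting in the hindbrain and high numbers in the trunk and tail. The forebrain, from which the striatum arises, normally keeps them silent under Polycomb proteins. H3K4me3, a mark laid down by Trithorax group and related methyltransferases, is found at CpG-rich promoters that are active or poised, so a peak does not by itself show transcription.

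The sequences below are those the results turn on, read from the RefSeq promoter, miRNA and genome files of GRCm38.p6, the build that mm10 names. Promoters run from 250 bases before the RefSeq start to 50 after it, and the capitals in them mark CpG dinucleotides. The Hoxa2 promoter is shown because it was covered completely in the 5 mutant lists and not at all in Q7SST, the Hoxd3 promoter because it was the sole Hoxd promoter with a peak in every list, and the Hoxd13 promoter because it had no peak despite its many CpGs. The Hoxa13 promoter is the most CpG-rich of the 24 Hox promoters matched, which belonged to 22 of the 39 genes. The stretch between Hoxc12 and Hotair was marked in the 5 mutant lists alone.
Hoxa2 promoter, chr6:52164782-52165081, minus strand: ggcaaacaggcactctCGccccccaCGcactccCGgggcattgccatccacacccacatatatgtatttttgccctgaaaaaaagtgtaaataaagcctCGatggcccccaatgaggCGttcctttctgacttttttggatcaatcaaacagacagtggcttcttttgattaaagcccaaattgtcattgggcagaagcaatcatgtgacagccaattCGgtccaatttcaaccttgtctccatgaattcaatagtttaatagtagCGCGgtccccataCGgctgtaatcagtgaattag
Hoxd3 promoter, chr2:74711743-74712042, plus strand: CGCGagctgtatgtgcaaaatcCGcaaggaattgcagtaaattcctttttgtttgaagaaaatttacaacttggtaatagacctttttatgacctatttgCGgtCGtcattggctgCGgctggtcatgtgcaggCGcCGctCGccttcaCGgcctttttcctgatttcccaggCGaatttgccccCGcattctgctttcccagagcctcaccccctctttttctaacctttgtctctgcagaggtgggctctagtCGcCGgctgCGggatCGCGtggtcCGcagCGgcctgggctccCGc
Hoxd13 promoter, chr2:74667975-74668274, plus strand: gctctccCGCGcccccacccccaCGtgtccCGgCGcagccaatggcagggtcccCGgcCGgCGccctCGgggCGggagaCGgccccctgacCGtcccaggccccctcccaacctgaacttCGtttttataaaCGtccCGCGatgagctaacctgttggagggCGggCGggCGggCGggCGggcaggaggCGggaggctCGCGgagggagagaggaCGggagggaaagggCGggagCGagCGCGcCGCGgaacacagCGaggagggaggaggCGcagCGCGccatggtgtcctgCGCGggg
Hoxa13 promoter, chr6:52260831-52261130, minus strand: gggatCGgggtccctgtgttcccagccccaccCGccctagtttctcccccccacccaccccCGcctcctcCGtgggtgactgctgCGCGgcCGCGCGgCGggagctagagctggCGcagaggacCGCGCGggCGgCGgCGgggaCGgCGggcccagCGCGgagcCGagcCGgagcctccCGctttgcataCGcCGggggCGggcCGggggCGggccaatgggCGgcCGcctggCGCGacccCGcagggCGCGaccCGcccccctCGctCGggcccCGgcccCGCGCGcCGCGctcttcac
Region between Hoxc12 and Hotair, chr15:102943037-102943336, plus strand: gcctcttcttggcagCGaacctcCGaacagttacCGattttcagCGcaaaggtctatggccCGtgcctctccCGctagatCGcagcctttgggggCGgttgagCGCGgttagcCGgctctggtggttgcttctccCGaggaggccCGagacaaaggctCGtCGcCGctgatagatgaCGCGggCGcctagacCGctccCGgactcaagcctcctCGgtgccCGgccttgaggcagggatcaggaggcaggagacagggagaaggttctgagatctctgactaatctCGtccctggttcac
The 300 bases held 9 CpGs at Hoxa2, 20 at Hoxd3, 37 at Hoxd13, 45 at Hoxa13 and 24 in the Hoxc stretch. At least as many CpGs as at Hoxd13 were found in 5.58% of the 32851 promoters of the table, and at least as many as at Hoxa2 in 45.8%.

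The miRNAs of the clusters are given as mature 5p strands (for miR-615 both strands) with the seed, bases 2 to 8, in capitals. miR-10a, in Hoxb, and miR-10b, in Hoxd, share the seed ACCCUGU. The miR-196 genes, in Hoxa, Hoxb and Hoxc, share AGGUAGU.
mmu-miR-10a-5p: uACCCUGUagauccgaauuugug
mmu-miR-10b-5p: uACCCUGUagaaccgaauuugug
mmu-miR-196a-5p: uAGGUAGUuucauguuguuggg
mmu-miR-196b-5p: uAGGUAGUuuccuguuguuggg
mmu-miR-615-5p: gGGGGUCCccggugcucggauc
mmu-miR-615-3p: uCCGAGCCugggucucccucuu

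Within 1 kb of a start, Hox promoters carried a peak about as often as promoters in general. Marked were 25 of 39 in Q7SST (64.1%), 25 in Q111SST (64.1%), 21 under cyproheptadine (53.8%), 23 under loxapine (59.0%), 22 under DKI (56.4%) and 25 under meclizine (64.1%). Over all protein-coding genes the shares were 58.6% in Q7SST, 57.1% in Q111SST, 54.1% under cyproheptadine, 56.9% under loxapine, 54.6% under DKI and 57.3% under meclizine, so the Hox shares lay near the background. That depended on the definition. With a peak required over the start, 33.3% to 46.2% of Hox genes were marked against 42.2% to 50.2% of all genes, and with only peaks scoring at least 47, the median score over the 6 lists pooled, the shares were 25.6% to 41.0% against 45.6% to 52.5%, with Hox genes below the background in every list. Within 5 kb they were above it, at 71.8% to 84.6% against 58.9% to 63.4%. A single gene is 2.56% of the 39. In all 6 lists 19 Hox genes were marked (48.7%, against 52.3% of all genes), 10 were marked in none (25.6%, against 38.5%), and 10 were marked in 1 to 5 lists (25.6%, against 9.26%). The last group included Hoxb8 and Hoxc12, with peaks near the 1 kb limit, and Hoxd4, whose calls depended on the start set. Of the 8 anterior genes (paralogues 1 to 3) 5 or 6 were marked, of the 15 central genes (4 to 8) 10 to 12, and of the 16 posterior genes (9 to 13) 6 to 8.

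**Figure D1:**
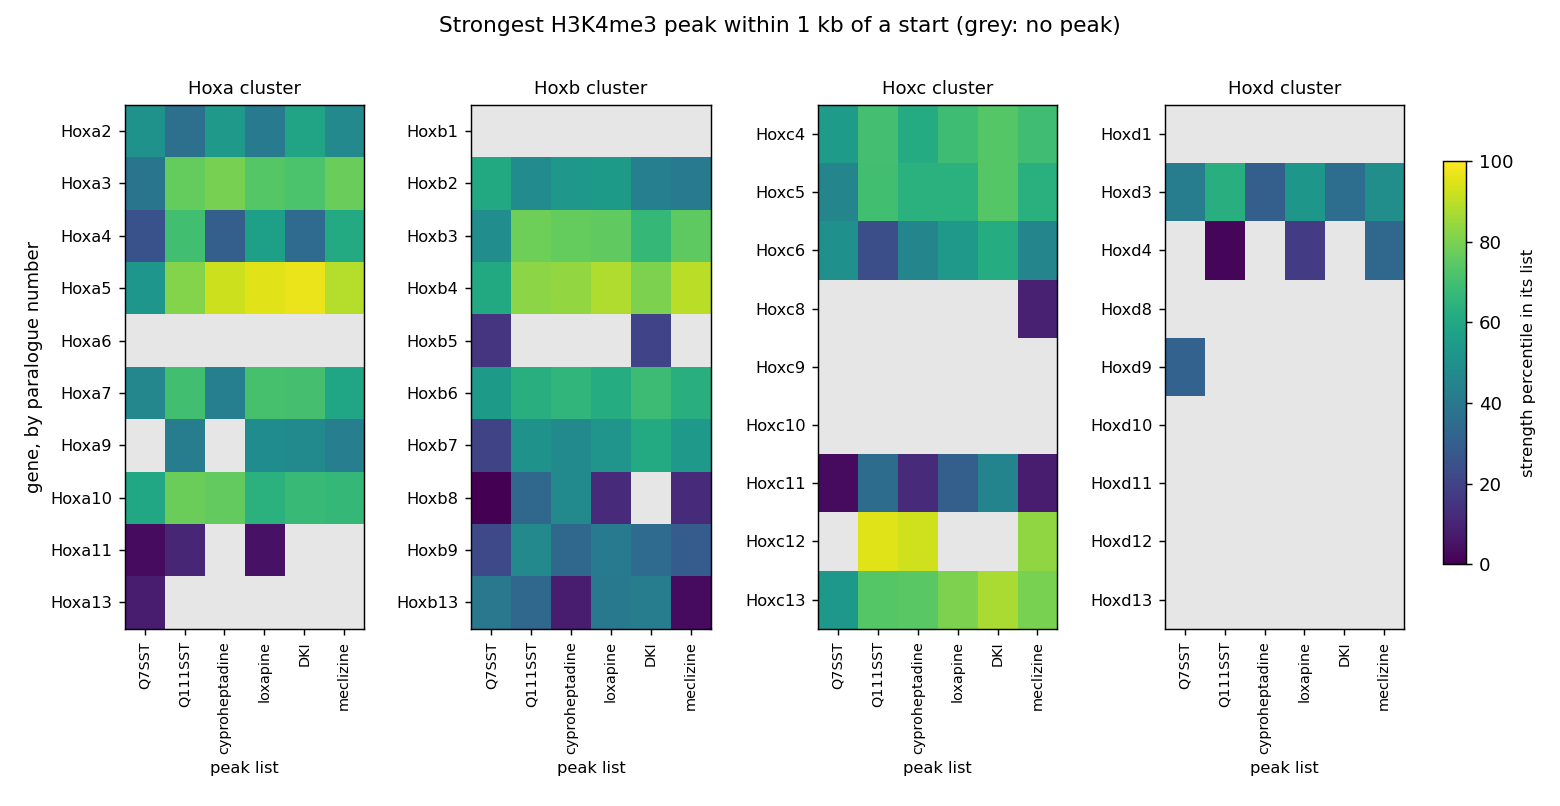
Strength percentile of the strongest peak within 1 kb of a start, for 38 of the 39 Hox genes (vertical, by paralogue number) in the 6 lists (horizontal), with a panel per cluster and grey for no peak. Hoxa to Hoxc are mostly coloured, whereas in Hoxd only Hoxd3 is coloured in every list.

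CpG content overlapped between marked and unmarked Hox genes. Within 500 bp on either side of the most CpG-rich start, the genes marked in all 6 lists had a median of 56 CpGs (22 to 125), those marked in 1 to 5 lists 65 (42 to 137), and those marked in none 52.5 (36 to 147). Over all protein-coding genes the medians were 68 for genes marked in all 6 lists and 11 for genes marked in none. Hoxd8, with 147 CpGs, Hoxd13, with 118, and Hoxd11, with 113, were unmarked in every list.

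Hoxd stood apart from the other clusters in marked length. In Hoxd 0.386% to 2.09% of the 96833 bp between its first and last gene base lay under peaks, against 9.57% to 16.0% of Hoxa, 15.4% to 18.4% of Hoxb and 8.08% to 15.3% of Hoxc. Hoxd was the least marked cluster in all 6 lists although its 28.0 CpGs per kb were close to the 29.9 of Hoxa and above the 20.9 of Hoxb and 21.5 of Hoxc. Hoxb was the most marked in all 6. Of the 27247 windows of 100 kb in the genome, at most 0.0440% were marked over as large a share as Hoxb in any list, whereas 27.6% to 42.7% were marked at least as much as Hoxd. The lengths were unlike, since the Hoxb share was a mean over 173941 bp, and windows in assembly gaps were not left out.

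**Figure D2:**
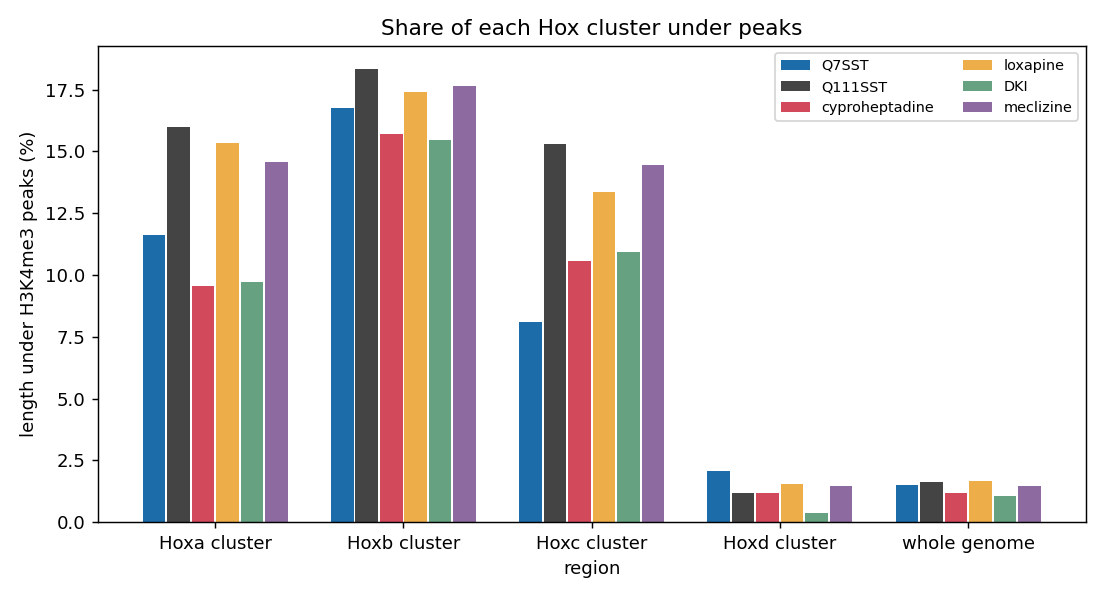
Percent of the length of each Hox cluster, and of the whole genome, under H3K4me3 peaks (vertical) in the 6 lists (bars, 1 list each, without error bars). Hoxd stays between 0.386% and 2.09%, near the genome's 1.08% to 1.65%, and the other clusters lie at 8.08% or above.

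Across the 4 clusters together, 491815 bp, the marked length was 52734 bp in Q7SST (10.7%), 67618 bp in Q111SST (13.7%), 50764 bp under cyproheptadine (10.3%), 63397 bp under loxapine (12.9%), 50111 bp under DKI (10.2%) and 64201 bp under meclizine (13.1%). Q111SST was the highest and DKI the lowest. The order changed when peaks under that score limit were left out: meclizine (43696 bp) was above Q111SST (38579 bp) and Q7SST (17209 bp) was the lowest. The full-list shares were 7.13 (Q7SST) to 9.43 (DKI) times the share of the genome under peaks of the same list. The peaks of the 6 lists merged into 69 regions, of which 33 held a peak from every list (47.8%, against 35.1% of 61168 merged regions genome-wide) and 12 came from 1 list (17.4%, against 29.6%). By cluster, a peak from every list was found in 14 of 20 regions of Hoxb, 10 of 19 of Hoxc, 8 of 23 of Hoxa and 1 of 7 of Hoxd.

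**Figure D3:**
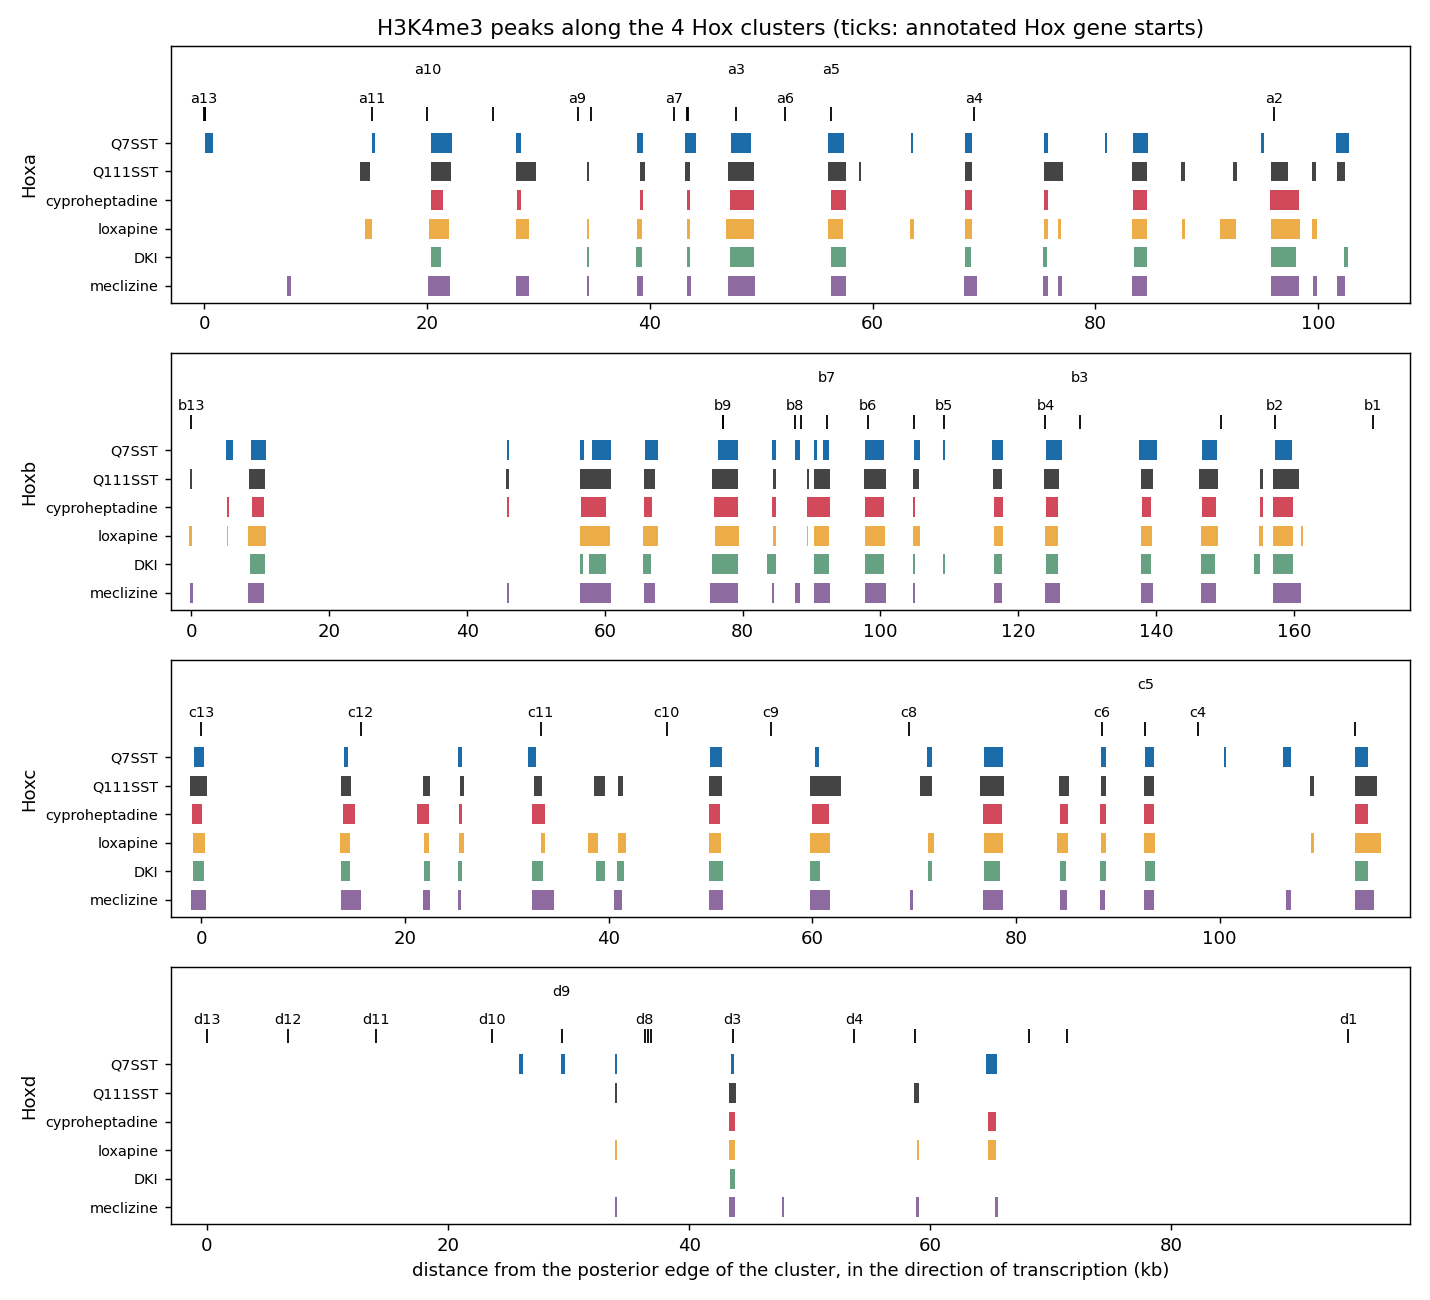
Peaks of the 6 lists (coloured bars) along each Hox cluster, by distance in kb from its posterior edge in the direction of transcription; black ticks are annotated starts of 38 Hox genes and each gene's name stands over its most upstream start. Regions with a peak from all 6 lists number 14 of 20 in Hoxb, 10 of 19 in Hoxc, 8 of 23 in Hoxa and 1 of 7 in Hoxd, and the stretch from Hoxd13 to Hoxd9 has peaks in Q7SST only.

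In the Hoxa cluster, 6 of 11 genes were marked in every list (Hoxa2, Hoxa3, Hoxa4, Hoxa5, Hoxa7 and Hoxa10) and Hoxa6 in none. Hoxa5, a regulator of cervical and upper thoracic patterning and of the lung, had the highest percentile of the Hoxa promoters in each mutant list. Its percentile was 52.5 in Q7SST, 81.3 in Q111SST, 92.5 under cyproheptadine, 95.5 under loxapine, 97.2 under DKI and 88.8 under meclizine. The Q7SST value was the lowest and the compound lists were all above Q111SST. Hoxa2, which patterns the second branchial arch and the hindbrain, had percentiles of 50.8, 36.8, 54.2, 41.7, 58.3 and 47.1 in the same order. In Q7SST that call rested on a 228 bp peak lying 915 bp from the start, whereas in the mutant lists peaks of 1565 to 2606 bp covered the start.

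Hoxa4 had percentiles of 25.2 in Q7SST, 69.8 in Q111SST, 30.4 under cyproheptadine, 56.6 under loxapine, 34.8 under DKI and 61.0 under meclizine. Q7SST, cyproheptadine and DKI were thus low and the other 3 lists high, and the peak ended 213 to 254 bp from the annotated start in every list but meclizine, where it covered the start. Hoxa10, which acts in the posterior trunk and the uterus, had 59.6, 77.6, 76.0, 63.9, 67.4 and 66.7. Hoxa3 was called from its annotated long transcript, which starts at chr6:52213115 upstream of Hoxa5 and Hoxa6. It had 38.9 in Q7SST, 76.6 in Q111SST, 79.5 under cyproheptadine, 73.6 under loxapine, 71.5 under DKI and 77.2 under meclizine.

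Hoxa9, Hoxa11 and Hoxa13 differed in state between lists. Hoxa9 was marked at 41.9 in Q111SST, 48.6 under loxapine, 48.0 under DKI and 42.9 under meclizine by peaks of 201 to 236 bp, and had none in Q7SST or under cyproheptadine. Hoxa11 was marked by weak peaks in Q7SST (2.76), Q111SST (10.8) and loxapine (4.96). Hoxa13, a gene of the distal limb and hindgut, was marked in Q7SST alone, by a 763 bp peak at percentile 7.83. In Q111SST the nearest peak to Hoxa13 lay 1010 bp away, just outside the limit.

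In the Hoxb cluster, 7 of 10 genes were marked in every list (Hoxb2, Hoxb3, Hoxb4, Hoxb6, Hoxb7, Hoxb9 and Hoxb13) and Hoxb1 in none. Hoxb4, known for its role in blood progenitors, had percentiles of 60.8 in Q7SST, 82.6 in Q111SST, 83.9 under cyproheptadine, 88.3 under loxapine, 80.5 under DKI and 89.7 under meclizine, with Q7SST the lowest. Hoxb2 went the other way, with 60.8 in Q7SST, 48.2 in Q111SST and 41.0 to 54.4 in the compound lists. Hoxb8 was marked in 5 lists, at 0.332 in Q7SST, 33.9 in Q111SST, 47.6 under cyproheptadine, 12.2 under loxapine and 12.4 under meclizine. In Q111SST, cyproheptadine and loxapine its peak lay 921 to 995 bp from a start, and the cyproheptadine peak also marked Hoxb7. Hoxb5 was marked in Q7SST (15.1) and DKI (20.2) by peaks of 256 and 222 bp.

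The widest Hox peaks were in Hoxb. A peak of 4489 bp in Q111SST, chr11:96250685-96255173, over an exon of the predicted gene Gm53 and far from any Hox start, was wider than nearly all peaks of its list (percentile of width 99.9) while its score was at the 55.5 percentile. The same region was the widest of the cluster under cyproheptadine (3593 bp), loxapine (4265 bp) and meclizine (4417 bp). In Q7SST and DKI the widest peak covered the Hoxb9 start (2985 and 3768 bp). Hoxb9, a thoracic patterning gene, had strength percentiles of 22.1 in Q7SST, 47.2 in Q111SST, 33.5 under cyproheptadine, 41.7 under loxapine, 34.8 under DKI and 29.0 under meclizine. The strongest Hoxb peak of each mutant list lay outside the promoters, at chr11:96310531-96312138, an intergenic region 6129 bp from the Hoxb4 start. There the percentile was 45.4 in Q7SST, 94.8 in Q111SST, 86.1 under cyproheptadine, 94.0 under loxapine, 93.0 under DKI and 96.2 under meclizine.

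In the Hoxc cluster, Hoxc4, Hoxc5, Hoxc6, Hoxc11 and Hoxc13 were marked in every list and Hoxc9 and Hoxc10 in none. Hoxc13, a gene of hair and nail formation, had percentiles of 53.2 in Q7SST, 73.6 in Q111SST, 74.3 under cyproheptadine, 80.4 under loxapine, 87.2 under DKI and 80.1 under meclizine. Hoxc11 had 2.76, 35.4, 12.3, 30.3, 45.1 and 7.46 in the same order. Q7SST was the lowest for each of these genes. Hoxc6 had 50.0, 24.2, 45.4, 53.6, 62.0 and 45.5, with Q111SST the lowest. Hoxc4 had 55.4, 70.2, 61.7, 69.0, 73.7 and 69.5, and Hoxc5 had 45.4, 69.8, 63.7, 63.9, 73.7 and 63.6, again with Q7SST the lowest. Hoxc8 was marked under meclizine alone, at 9.13, while in Q111SST the nearest peak lay 1073 bp away. With the starts of the full annotation it was marked in every list but cyproheptadine.

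Hoxc12 was called marked in Q111SST (95.2), cyproheptadine (92.7) and meclizine (83.3), and in Q111SST it had the highest percentile of all Hox genes. These calls depended on where a peak ended. An upstream region, chr15:102934719-102936802, held a peak in all 6 lists, 1261 bp from the start in Q7SST, 996 bp in Q111SST, 598 bp under cyproheptadine, 1013 bp under loxapine, 1035 bp under DKI and 0 bp under meclizine. Its percentile was 49.1 in Q7SST, 95.2 in Q111SST, 92.7 under cyproheptadine, 84.9 under loxapine, 94.4 under DKI and 83.3 under meclizine, so that all 5 mutant lists were above Q7SST. Downstream, the intergenic region between Hoxc12 and Hotair, chr15:102942306-102943549, of which 300 bases are printed above, had no peak in Q7SST. It stood at percentile 88.6 in Q111SST, 68.4 under cyproheptadine, 72.6 under loxapine, 68.6 under DKI and 84.1 under meclizine. The 523 bp that all 5 mutant lists covered held 84.1 CpGs per kb.

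The widest Hoxc peak was 2975 bp in Q111SST, over coding sequence of Hoxc9, 3867 bp from its start. In loxapine it lay over Hoxc4 (2600 bp), in meclizine over the Hoxc11 start (2200 bp), and in Q7SST (1902 bp), cyproheptadine (1887 bp) and DKI (1608 bp) over the Hoxc5 and Hoxc6 gene records, more than 6 kb from the nearest start used here. The full annotation places a further Hoxc6 start there, at chr15:102998257.

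In the Hoxd cluster, 6 of 9 genes had no peak within 1 kb of a start in any list (Hoxd1, Hoxd8, Hoxd10, Hoxd11, Hoxd12 and Hoxd13). Hoxd3 was marked in every list, at 42.4 in Q7SST, 62.5 in Q111SST, 30.4 under cyproheptadine, 52.8 under loxapine, 36.1 under DKI and 49.4 under meclizine. The peak lay at the start of its longest transcript, chr2:74711927, and under DKI it was the sole peak of the cluster (374 bp). Hoxd4 was marked in Q111SST (1.27), loxapine (17.7) and meclizine (33.7). The full annotation has a further, noncoding Hoxd4 transcript that starts at chr2:74711929, under the Hoxd3 peak, and with it Hoxd4 was marked in all 6 lists. Hoxd9 was marked in Q7SST alone (31.3), by a 271 bp peak over the start. The distance from Hoxd13 to the nearest peak was 25859 bp in Q7SST and 33808 to 43388 bp in the mutant lists.

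The vehicle lists address what differs between the wild type and the mutant line. Of the clusters' marked length, 42009 bp were shared, 10725 bp were in Q7SST only and 25609 bp in Q111SST only. The shared part was 53.6% of the length marked in either list, close to 54.6% for the whole genome. Length in Q111SST only exceeded length in Q7SST only in Hoxc (10061 against 1705 bp), Hoxa (7862 against 3262 bp) and Hoxb (7017 against 4214 bp), and the reverse held in Hoxd (669 against 1544 bp). Genome-wide, the Q111SST-only length was 1.33 times the Q7SST-only length. Marked in Q7SST and not in Q111SST were Hoxa13, Hoxb5 and Hoxd9 (7.69% of Hox genes, against 3.51% of all genes), and the reverse was seen for Hoxa9, Hoxc12 and Hoxd4 (7.69% against 2.04%). With the full annotation the Hoxd4 difference was gone. The counts moved with other settings too. Gained and lost in Q7SST were 1 and 4 with lists of equal size (3.58% and 1.87% of all genes). They were 6 and 7 with a peak over the start (4.30% and 2.89%) and 1 and 1 within 5 kb (3.88% and 2.82%). With the score limit they were 3 and 6 (3.51% and 2.08%).

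**Figure D4:**
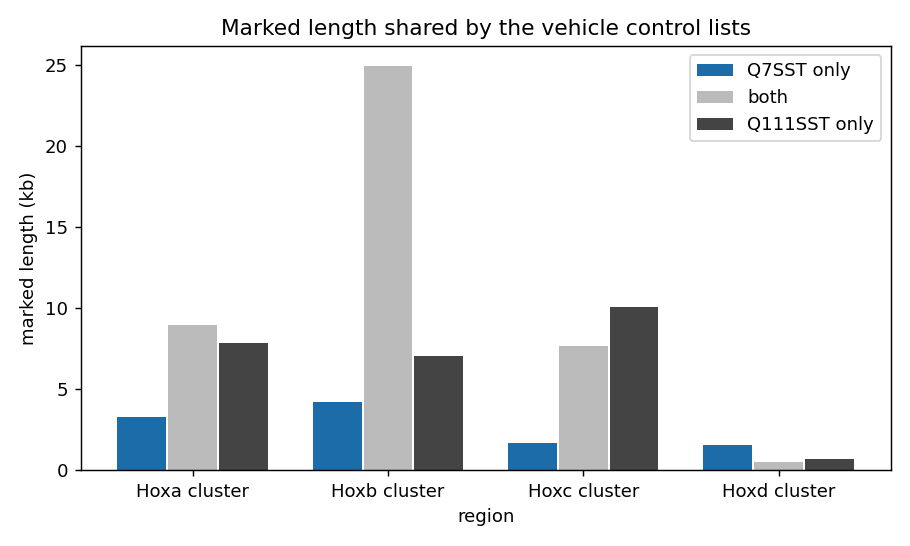
Marked length in kb (vertical) in Q7SST only, in both vehicle lists and in Q111SST only, for each Hox cluster, 1 list per condition. The Q111SST-only bar is above the Q7SST-only bar in Hoxa, Hoxb and Hoxc, and in Hoxc it is the tallest of the 3.

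The Q111SST-only stretches of 1 kb or more numbered 6. They were 1565 bp over the Hoxa2 start, 1331 bp lying 6602 bp from the Hoxa4 start, 1360 bp lying 2498 bp from the nearer Hoxa10 start, 1142 bp lying 18958 bp from Hoxb9, 1097 bp lying 5201 bp from Hoxc11, and 2067 bp lying 4775 bp from Hoxc9. At Hoxa2 each compound list covered at least 98.5% of the stretch. The stretch by Hoxa4 was covered 0% by cyproheptadine and DKI, 23.3% by loxapine and 27.3% by meclizine. No stretch marked in Q7SST and not in Q111SST reached 1 kb. The longest without a peak in any mutant list was the 763 bp at Hoxa13.

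By their median, though not for every gene, Hox promoter peaks ranked lower in Q7SST than in each mutant list. Among the 19 genes marked in all 6 lists, the median percentile was 49.1 in Q7SST, 69.8 in Q111SST, 54.2 under cyproheptadine, 62.0 under loxapine, 66.8 under DKI and 61.0 under meclizine. For the 11455 protein-coding genes marked in all 6 lists the medians were 82.4, 84.3, 80.0, 84.3, 76.8 and 82.2, so Hox promoters ranked below the typical marked promoter in each list. The order of the mutant lists was not stable. With lists of equal size (17 genes) the Hox medians were 37.6, 60.3, 58.0, 46.5, 67.4 and 53.7, with DKI the highest. Within 5 kb (27 genes) DKI was also the highest, at 68.6 against 64.2 in Q111SST. Q7SST was the lowest in both. In 13 of the 19 Hox genes (68.4%) the Q7SST percentile was below all 5 mutant lists, which held for 15.1% of the 11455 genes. Among the 5250 of these whose Q111SST percentile lay within the Hox range of 24.2 to 82.6 it held for 12.5%. The reverse, Q7SST above all 5, was seen for Hoxb2 alone, against 21.1% of the 11455. Against Q111SST alone, the Q7SST percentile was lower in 15 of the 19 Hox genes and in 6846 of the 11455 genes. The 13 genes each had their own Q7SST peak, but they are neighbours in 3 clusters and all rest on the single Q7SST list. No test of this count was made.

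**Figure D5:**
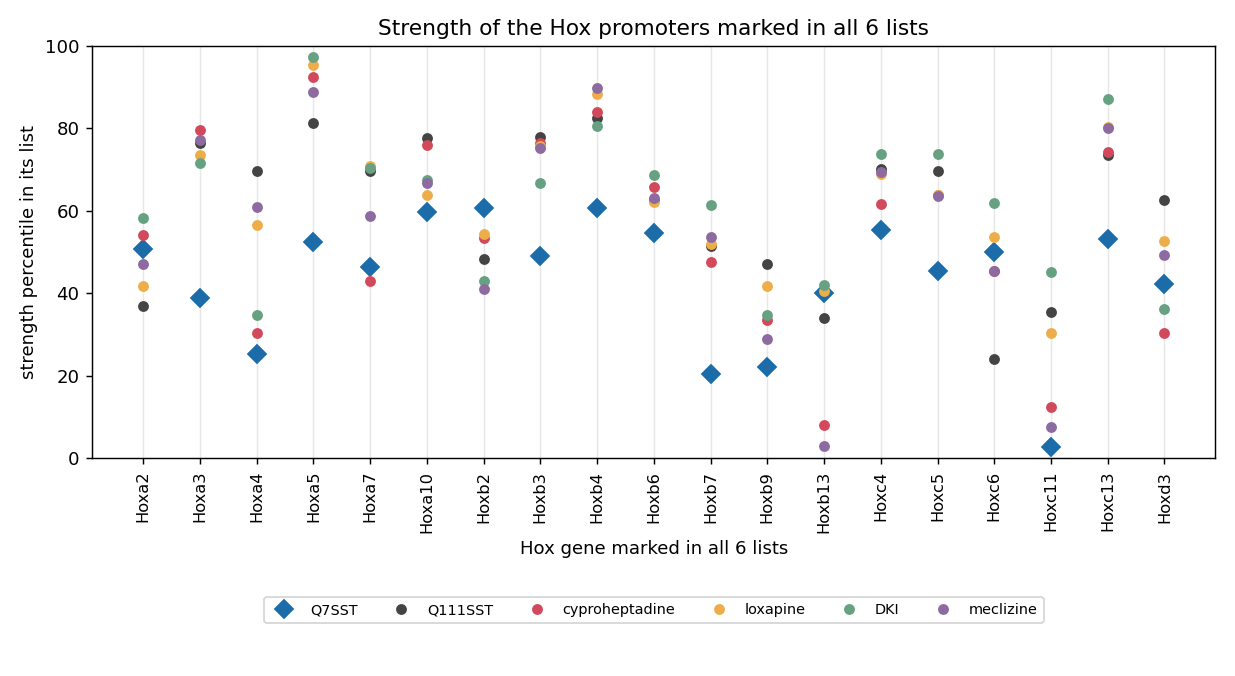
Strength percentile (vertical) of the 19 Hox genes marked in all 6 lists (horizontal), with a diamond for Q7SST and circles for the 5 mutant lists. The diamond is the lowest symbol for 13 genes, among them Hoxa3, Hoxa5, Hoxb4 and Hoxc13, and the highest for Hoxb2.

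The 4 compounds were each set against the same Q111SST list, so their differences from it are not independent of each other. Cyproheptadine lacked 4 genes marked in Q111SST, among them Hoxa9, Hoxa11 and Hoxd4 (10.3% of Hox genes, against 3.27% of all genes), and added none (0.283% of all genes). Loxapine lacked 2 genes, Hoxc12 among them (5.13%, against 1.19%) and added none (0.931%). DKI lacked Hoxa11, Hoxb8, Hoxc12 and Hoxd4 (10.3%, against 2.82%) and added Hoxb5 (2.56%, against 0.256%). Meclizine lacked Hoxa11 (2.56%, against 0.762%) and added Hoxc8 (2.56%, against 0.949%). With the full annotation Hoxd4 was marked under every compound and Hoxc8 was no longer added by meclizine, but was then lacking under cyproheptadine. All but 1 of the peaks behind the lacking calls were under the median strength of the Q111SST list, the exception being Hoxc12, whose upstream peak was still in the loxapine and DKI lists. Other settings moved these counts. With lists of equal size loxapine lacked 4 (1.89% of all genes), DKI 2 (1.47%) and meclizine 3 (0.712%). With the score limit loxapine lacked 1 (1.65%) and meclizine 0 (0.589%). Loxapine, DKI and meclizine then added 3 each (1.15%, 0.420% and 1.83%).

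In marked length over the full lists, cyproheptadine and DKI were below Q111SST in Hoxa, Hoxb and Hoxc, and so, by less, were loxapine and meclizine. For meclizine the order turned in Hoxa with lists of equal size (13404 against 13173 bp in Q111SST), and in Hoxa (12101 against 7354 bp) and Hoxc (11840 against 10548 bp) with that score limit. DKI in Hoxa was then also slightly above Q111SST (7365 bp). For loxapine it turned in Hoxa with peaks within 1 kb merged (17076 against 16834 bp). In Hoxc with lists of equal size, DKI (12644 bp) was above loxapine (12145 bp) and meclizine (12583 bp). In Hoxd, where few peaks lay, Q111SST had 1150 bp, cyproheptadine 1159 bp, loxapine 1514 bp, DKI 374 bp and meclizine 1418 bp. With lists of equal size, cyproheptadine (452 bp) and loxapine (466 bp) were below Q111SST (773 bp) there, and with the score limit they were at 0 and 466 bp against 570 bp. Of the 25609 bp in Q111SST only, cyproheptadine covered 39.8%, loxapine 61.8%, DKI 40.0% and meclizine 61.0%, against 34.9%, 63.0%, 30.6% and 54.9% genome-wide. Of the 10725 bp in Q7SST only, they covered 13.4%, 20.1%, 12.3% and 20.4%, against 6.17%, 18.0%, 5.44% and 13.2%. Cyproheptadine and DKI also had the shortest lists, 33721 and 30758 peaks against 40406 in Q111SST. With every list limited to its strongest 30758 peaks, the marked length of the clusters was 43869 bp in Q7SST, 58723 bp in Q111SST, 49736 bp for cyproheptadine, 53550 bp for loxapine, 50111 bp for DKI and 56818 bp for meclizine. Q111SST was still the highest, and Q7SST took the place of DKI as the lowest.

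Of the noncoding genes in the clusters, Mir615, within Hoxc5, was marked in all 6 lists, with a peak 131 to 297 bp from its start at percentiles of 45.4 in Q7SST and 63.6 to 73.7 in the mutant lists. This was the Hoxc5 peak itself. Mir10a, Mir10b and Mir196b were within 1 kb of a peak in Q111SST alone, at 898, 909 and 917 bp. Peaks just beyond that limit lay 1058 to 1166 bp from Mir10a in the other 5 lists, and 1137 and 1061 bp from Mir10b in loxapine and meclizine. The Mir196a genes were marked in no list, although Mir196a-2 had a peak 1007 to 1298 bp away in each. Hotairm1, a noncoding RNA of the Hoxa cluster, was marked in 4 lists. Hottip, beyond Hoxa13, was marked in Q111SST (29.3), cyproheptadine (20.2), loxapine (62.0) and meclizine (57.8). Hotair, which is transcribed opposite to the Hoxc genes, had a peak 845 to 1130 bp from its start in every list, within the limit in 4 of them. Haglr, in Hoxd, had none within 16569 bp.

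All 9 TALE cofactors, the Pbx, Meis and Pknox homeodomain proteins that bind DNA together with Hox proteins, were marked in all 6 lists. Of 15 ParaHox genes and upstream factors, 10 were marked in Q7SST, 8 in Q111SST and 7 in each compound list. Cdx1, Cdx2 and Cdx4, which activate trunk Hox genes, were marked in none, as were the retinoic acid receptor gene Rarb and Cyp26c1. Egr2, a regulator of hindbrain Hox expression, was marked in all 6, at percentiles of 89.1 to 96.9. Of 9 genes flanking the clusters, 6 were marked in every list and Evx1, Evx2 and Skap1 in none. The share of all protein-coding genes marked ran from 54.1% to 58.6% over the lists, and 52.3% were marked in all 6.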

How the data were processed

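H3K4me3 ChIP-Seq of MNase-digested chromatin was deposited as 1 peak list per condition, with the position of each peak and a score. How the authors scaled the deposited score is not given in the sources used here. The lowest score in every list was 10. Per the labels' processing notes, Trimmomatic 0.36, Bowtie2, SAMtools 1.3 and MACS2 were used with build mm10; their roles and settings are not stated there. The design text speaks of triplicates, and whether they were pooled is not stated. A list's length and its scores can both move with read depth. A percentile within a list avoids raw scores but can still move with the list's length. The 11455 genes marked in all 6 lists had a median percentile of 76.8 in DKI (30758 peaks) and 84.3 in loxapine (45564 peaks). Scores were compared as percentiles within their list. The exception is an alternative with a score limit of 47, which applies the same raw score to lists whose median scores ran from 40 to 54.

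Starts were those of the basic transcript set of GENCODE vM21 (mitochondrial genes left out), and a marked gene had a peak no more than 1 kb from one of them. Cluster length ran from the first to the last base of the Hox genes. No peak of the 21 chromosomes passed a chromosome end of GRCm38.p6. Python 3.11.15, numpy 2.4.6 and pandas 2.3.3 were used, and the scripts were checked on planted peaks. With 1 list per condition no test was run. A gene is called gained or lost by its state in the lists only. Antisense and overlapping genes share peaks, which have no strand.

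The members and the gene lists were chosen with earlier results of these data known. All 39 genes were counted, and the values of 1 of them are not reported here. Values in the lists were given for genes whose state differed between lists, for the 3 highest percentiles in Q111SST, for genes nearest a stretch of 1 kb or more marked in 1 vehicle list, and for genes under the widest peaks. Hoxb2, Hoxc13 and the intergenic regions were chosen after their values were seen. Alternatives were a higher score limit, lists of equal size, other windows and start sets, widened clusters and merged peaks.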

Additional observations from a re-analysis of the deposited data

How the results depend on the processing

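The conditions had 1 list each, read depth is unknown, and the score has no stated scale, so no value has an error. No paired analysis was possible because there was 1 list for each condition. Each alternative changed 1 choice, and a value was taken as moved when it changed by over 1.5 times; the cause was not tested.

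Hoxd was the least marked cluster in all 6 lists under each of the 4 alternatives for length, and Q111SST-only length exceeded Q7SST-only length in Hoxa, Hoxb and Hoxc under each. In Hoxd the order turned with scores at or above the pooled median of 47 (570 against 0 bp). Hoxb was then the most marked cluster in 4 lists only. That limit left 10 (Q7SST), 13 (Q111SST), 10 (cyproheptadine), 15 (loxapine), 13 (DKI) and 16 (meclizine) marked Hox genes (25.6% to 41.0%, against 45.6% to 52.5% of all genes), and 17209, 38579, 19981, 36417, 25614 and 43696 bp of marked length in the same order, so meclizine was above Q111SST and Q7SST was the lowest. Q7SST-only length became 4226 bp. Lost genes numbered 6 in Q7SST, 1 under loxapine and 0 under meclizine, and gained genes 3 under loxapine, 3 under DKI and 3 under meclizine; over the 5 lists, 0.589% to 5.90% of all genes were lost and 0.310% to 3.51% gained. The limit is a raw score, and the lists' median scores ran from 40 to 54.

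With each list limited to its strongest 30758 peaks, Q7SST-only length was 6766 bp, gained genes in Q7SST numbered 1, and lost genes 4 under loxapine, 2 under DKI and 3 under meclizine (all genes: 0.434% to 3.58% gained, 0.712% to 1.99% lost). With a peak required over the start, marked genes numbered 16 in Q7SST, 13 under cyproheptadine and 15 under loxapine (all genes: 42.2% to 50.2%). Q7SST had 6 gained and 7 lost, and DKI and meclizine 2 gained each (all genes: 0.456% to 4.30% gained, 1.42% to 7.05% lost). Within 5 kb, Q7SST had 1 gained and 1 lost, loxapine 0 lost, and DKI and meclizine 0 gained each (all genes: 0.361% to 3.88% gained, 1.21% to 4.16% lost).

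Hox genes with the Q7SST percentile below all 5 mutant lists numbered 12 of 17 with lists of equal size (18.0% of all genes marked in all 6 lists), 20 of 27 within 5 kb (15.8%), 13 of 19 with protein-coding transcripts only (15.1%) and 14 of 20 with the full annotation (15.4%). The full annotation, chosen after seeing the data, left 0 genes gained under meclizine, and changed the calls of Hoxc8 (from 1 list to 5) and Hoxd4 (from 3 to 6). Of the comparisons made for the counts and total lengths, 99 stayed within 1.5 times and 37 did not. Q111SST-only length exceeded Q7SST-only length over the 4 clusters under every alternative run.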
